A study of Homo sapiens with 4 samples.

Results

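Of the 19775 genes that the arrays measured by a probe set naming the gene alone, 36 belonged to a list of 38 genes of protein folding, quality control and stress sensing in the endoplasmic reticulum. The list was chosen by function, with earlier results of these data known. It held 39 names, because VIMP is an older symbol of SELENOS. PDIA5 and SYVN1 had no probe set naming them alone in the annotation used. Each gene was read from its brightest probe set, and it was counted in a cell line when that probe set had a signal of at least 100 on 1 of the line's arrays. By this rule 33 members were measured in MDA-MB-231 cells, whereas T-47D cells had 32. ERO1B, DERL3 and ERN1 stayed below 100 on all 4 arrays.

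The arrays were Affymetrix U133 Plus 2.0, on which several short probes for a transcript form a probe set. MDA-MB-231, a triple negative breast cancer line with mesenchymal features, and T-47D, an estrogen receptor-positive luminal line, were each cultured for 24 h with 100 μM JPH203 or with 100 μM Captisol, the cyclodextrin vehicle, as control. JPH203 inhibits LAT1, the transporter that carries large neutral amino acids into the cell. Each of the 4 conditions had 1 array, so no value below has an error or a p-value, and differences were read by size alone.

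Proteins that are secreted or placed in membranes fold in the endoplasmic reticulum with the help of chaperones, form disulfide bonds through disulfide isomerases, and are sent back to the cytosol for degradation when folding fails. Unfolded protein in this compartment activates the sensors ATF6, IRE1 (the product of ERN1) and PERK (the product of EIF2AK3). ATF6 and spliced XBP1, made by IRE1, raise transcription of chaperone and degradation genes, whereas PERK phosphorylates eIF2α and so raises translation of ATF4. GCN2, which senses uncharged tRNA when amino acids run short, phosphorylates the same factor. The ATF4 target genes can therefore be raised by either kinase, and the chaperone genes stand for the ATF6 and XBP1 arms.

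The best known DNA element of these arms is the endoplasmic reticulum stress element, CCAAT followed by 9 bases and CCACG, which was itself defined in promoters of chaperone genes of this list. A second form, ERSE-II, is ATTGG followed by 1 base and CCACG. Exact matches on either strand were searched in RefSeq promoter windows of GRCh38.p14, from 250 bases before to 50 bases after the start of each gene, and 35 of the 38 members had such a window. The first form was found in 6 of the 35 windows (17.1%) and in 0.0806% of all 27305 windows, and the second in 3 (8.57%) and in 0.0623%. Either form was in 9 members (25.7%) and in 39 windows of the whole table (0.143%). None of the 25 windows of the ATF4 target list or of the 43 windows of the other endoplasmic reticulum genes described below held either form. The elements of the 9 members are printed from 5′ to 3′. They show which windows hold an exact match to the sequence that ATF6 and XBP1 are known to use. Elements that differ from the searched letters were not looked for, so a window without a match may still hold one. Capitals mark the searched letters, the strand is that of the printed letters, and positions count from the 5′ end of the element in the direction of the gene.
HSPA5, chr9:125241391-125241409, minus strand, 66 bases before the start: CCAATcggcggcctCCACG
HSP90B1, chr12:103930216-103930234, plus strand, 194 bases before the start: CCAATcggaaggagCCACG
HSP90B1, chr12:103930321-103930339, minus strand, 89 bases before the start: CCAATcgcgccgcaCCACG
HYOU1, chr11:119057380-119057390, plus strand, 185 bases before the start: ATTGGaCCACG
HYOU1, chr11:119057274-119057284, plus strand, 79 bases before the start: ATTGGaCCACG
CALR, chr19:12938384-12938402, minus strand, 225 bases before the start: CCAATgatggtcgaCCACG
SDF2L1, chr22:21642114-21642124, minus strand, 188 bases before the start: ATTGGtCCACG
CRELD2, chr22:49918554-49918572, minus strand, 80 bases before the start: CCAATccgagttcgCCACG
PDIA6, chr2:10812853-10812871, minus strand, 86 bases before the start: CCAATgagccgcagCCACG
ERO1B, chr1:236282183-236282201, plus strand, 243 bases before the start: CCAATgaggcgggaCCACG
HERPUD1, chr16:56932025-56932035, plus strand, 117 bases before the start: ATTGGgCCACG

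The promoter of HSPA5 is shown as the standard target of these arms, and that of HERPUD1 because it was the only member whose window also held the core of the amino acid response element to which ATF4 binds, TGATG followed by 1 base and AA. This core was in 1 of 35 member windows (2.86%), in 2 of 25 windows of the ATF4 target list and in 3.75% of all windows. Each sequence is the 250 bases before the start, read in the direction of the gene. Capitals mark the exact matches to the stress elements and, in HERPUD1, also the amino acid response core, which is read on the opposite strand.
HSPA5, chr9:125241344-125241593, minus strand: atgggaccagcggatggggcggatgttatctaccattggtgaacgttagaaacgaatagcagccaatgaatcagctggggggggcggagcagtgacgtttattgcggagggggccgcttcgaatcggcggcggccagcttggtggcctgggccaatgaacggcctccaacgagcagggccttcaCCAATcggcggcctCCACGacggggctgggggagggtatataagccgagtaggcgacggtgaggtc
HERPUD1, chr16:56931892-56932141, plus strand: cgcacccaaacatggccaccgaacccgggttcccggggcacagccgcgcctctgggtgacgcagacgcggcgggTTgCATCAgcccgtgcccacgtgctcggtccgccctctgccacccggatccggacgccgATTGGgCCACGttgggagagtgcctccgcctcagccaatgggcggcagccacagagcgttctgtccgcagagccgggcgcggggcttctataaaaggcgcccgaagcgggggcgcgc

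Another element, TGACGTGG, bound by XBP1 and ATF6, was found in HYOU1, where it overlaps an ERSE-II, in DNAJC10 and in SEC62. These are 3 of 35 windows (8.57%), against 0.762% of all windows and 5 of the 43 windows of the other endoplasmic reticulum genes. A match is a description of the window and not a measured binding site.

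As a check of the labels, 10 of 10 luminal markers had 2-fold or more signal on the T-47D control array, and the MDA-MB-231 control array did so for the 8 mesenchymal markers that could be read of 10 listed. Between 10831 and 11857 probe sets per array had a signal of at least 100. In MDA-MB-231 cells, 95% of the 6777 genes measured on both arrays had a ratio of JPH203 to control between 0.778 and 1.32. In T-47D cells the range for 6416 genes was 0.503 to 1.97, so the same ratio was more common there. The poly-A control transcripts added to the samples had 1.56 times the control signal on the T-47D JPH203 array and 0.927 times in MDA-MB-231 cells. Scaled to these transcripts, the log2 ratios of all genes were lower by 0.64 in T-47D and higher by 0.11 in MDA-MB-231 cells. Why these transcripts were brighter on the T-47D JPH203 array cannot be told from these data. The ratio of 3′ to 5′ signal of ACTB was 1.72 on that array and 1.39 to 1.45 on the other 3. That of GAPDH went the other way, with 0.867 on that array and 0.940 to 1.01 on the other 3. The part of these in the ratios of JPH203 to control was not tested.

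With JPH203 no folding gene rose 2-fold in either line. In MDA-MB-231 cells 0 of 31 members measured on both arrays reached 2-fold or 1.5-fold in either direction. Of all genes in that line, 0.0885% rose and 0.0148% fell 2-fold, and 0.561% rose and 0.31% fell 1.5-fold, so these counts of 0 are near the background. In T-47D cells 0 of 32 members rose 2-fold, against 2.23% of all genes, and 1, UGGT1, fell 2-fold, against 2.42%. At 1.5-fold, 2 members rose (DNAJB9 and ATF6), against 11.6% of all genes, and 5 fell (UGGT1, PDIA4, EDEM3, SEL1L and EIF2AK3), against 13.6%. Outside the central 95% of genes, where 2.51% lie above and 2.51% below by construction in each line, DNAJB9 lay above in MDA-MB-231 cells and UGGT1 below in T-47D cells.

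The small ratios of the members nevertheless leaned in opposite directions in the 2 lines. In MDA-MB-231 cells 26 of 33 members were above their control, with a median log2 ratio of 0.08, beside -0.005 over all genes, of which 3500 of 7170 were above. In T-47D cells 8 of 32 were above, with a median of -0.15, beside -0.05 over all genes, of which 3397 of 7338 were above. The lean in MDA-MB-231 cells was not particular to the members, as 32 of 47 other endoplasmic reticulum genes were also above control there. In T-47D cells 23 of 45 of those other genes were above. Of the 32 members measured in both lines, 20 were above control in MDA-MB-231 and below it in T-47D cells, 3 the other way round, 5 above in both (DNAJB9, HERPUD1, SELENOS, XBP1 and ATF6) and 4 below in both. Across 10 settings of scaling, pseudocount and probe set, wherever each member was measured, 20 stayed above control in MDA-MB-231 cells, while 19 stayed below it in T-47D cells. In T-47D cells DNAJB9 and ATF6 alone were above control in all of them, and they were the 2 of 32 members above control when the arrays were scaled to the poly-A transcripts.

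**Figure D1:**
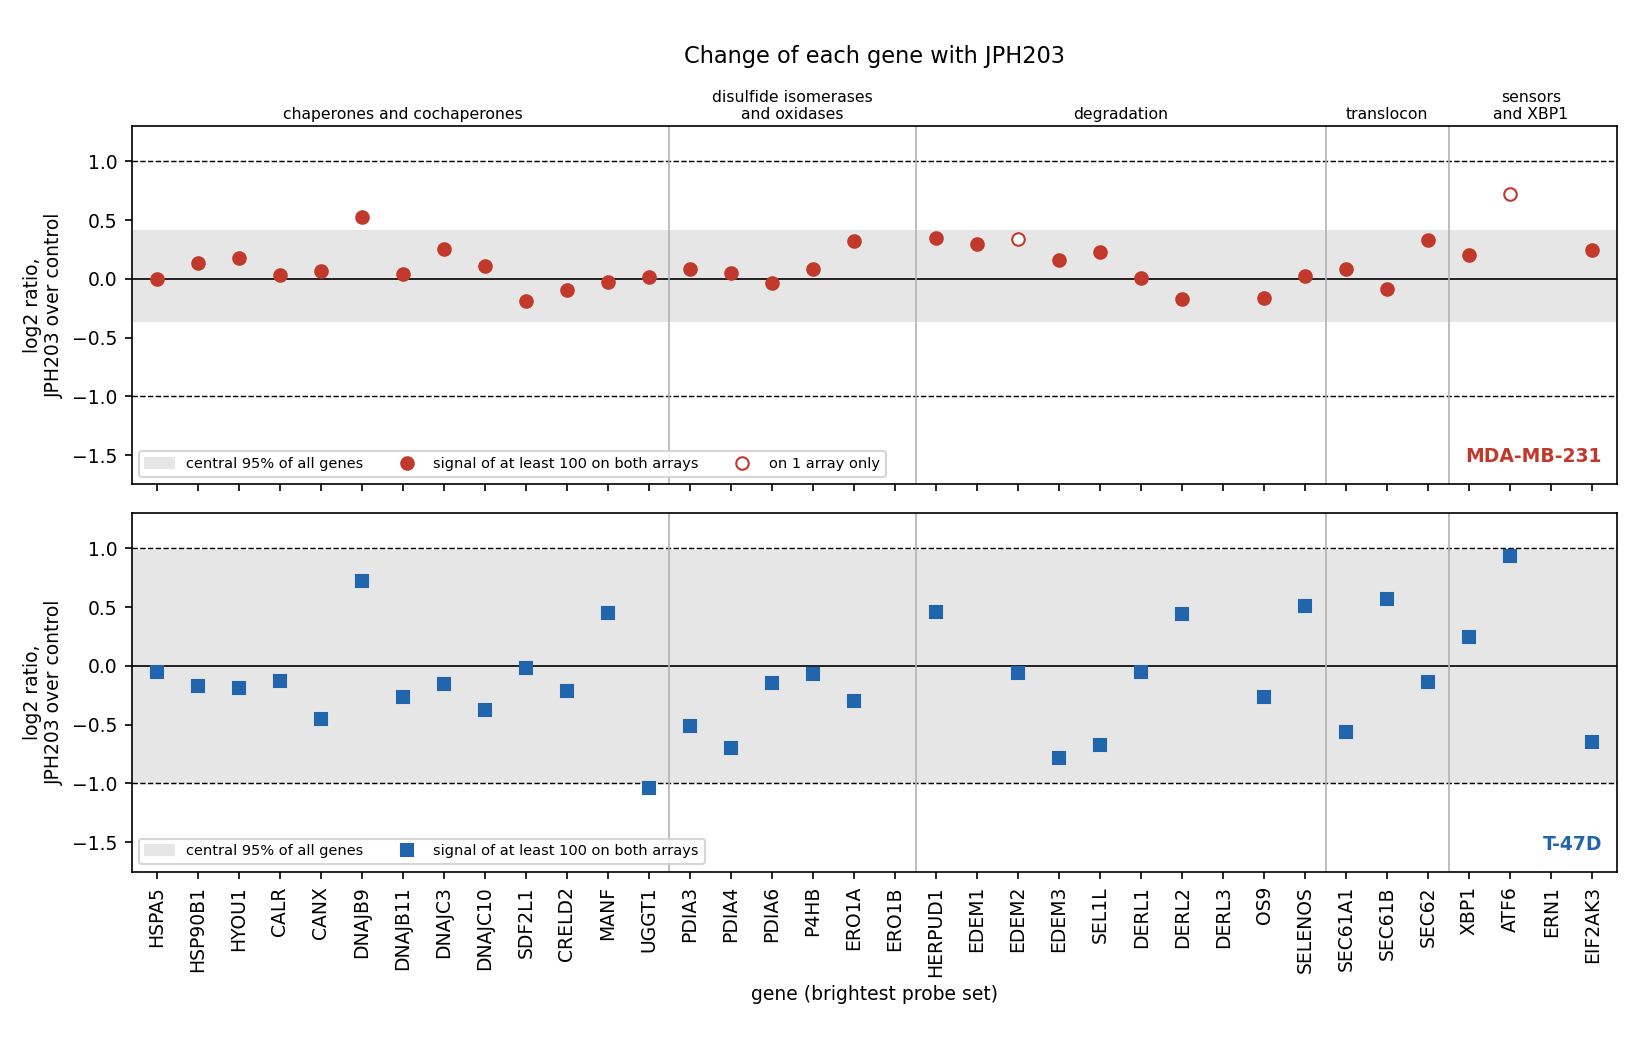
The log2 ratio of JPH203 to control is plotted for each gene, ordered by role, with MDA-MB-231 cells above and T-47D cells below. Grey bands hold the central 95% of all genes, dashed lines mark 2-fold, and open symbols have a signal of 100 on 1 array only. DNAJB9 lies above the band in MDA-MB-231 cells, as does ATF6 with a control signal under 100, and UGGT1 lies just below the band in T-47D cells.

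The sensors are described first. ATF6, the membrane-bound factor that is cut in the Golgi, had the highest ratio of the members in T-47D cells, with signals of 232.5 in control and 443.9 with JPH203 (ratio 1.91). In MDA-MB-231 cells its control signal of 97.1 lay just under the minimum and the JPH203 signal was 160.3. A second ATF6 probe set did not follow this, with 223.9 and 246 in MDA-MB-231 cells (1.10), against 104.2 and 78.8 in T-47D cells. The value of ATF6 therefore depended on the probe set.

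XBP1, the transcription factor that IRE1 activates by splicing, had signals of 421.6 and 485.8 in MDA-MB-231 cells (1.15), against 4216.7 and 5005.4 in T-47D cells (1.19). Splicing of its mRNA and activity of IRE1 and PERK were not measured. By western blot the study reported more phosphorylated GCN2 and eIF2α with JPH203 in both lines. Those blots used a shorter treatment and, in T-47D cells, a lower dose. EIF2AK3, the PERK kinase, gave 205.3 and 242.7 in MDA-MB-231 cells (1.18), whereas T-47D cells showed a fall by the 1.5-fold rule from 225.1 to 143.6 (0.638). ERN1, which encodes IRE1, was below 100 throughout, at 60.8 and 52.6 for MDA-MB-231 and at 53.2 and 32.0 for T-47D.

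Among the 13 chaperones and cochaperones, 10 were above control in MDA-MB-231 cells but only 2 were in T-47D cells, with median log2 ratios of 0.04 and -0.17. HSPA5, the Hsp70 chaperone BiP, had almost equal signals with and without JPH203 by its brightest probe set: MDA-MB-231 cells gave 7484.1 in control and 7488 with JPH203 (1.00), and T-47D cells 6793.8 and 6564.2 (0.966). In T-47D cells its dimmer probe set read 120.6 and 70.2, and the log2 ratio of the brightest went from -0.05 to -0.45 with quantile normalization and -0.44 with loess, so its ratio in that line depended on probe set and scaling. HSP90B1, the Hsp90 of this compartment, gave 2677.9 and 2935.2 in MDA-MB-231 cells (1.10), against 2195.9 and 1949.9 in T-47D cells (0.888). HYOU1, the exchange factor of BiP, gave 533 and 603.1 (1.13), then 645.8 and 566.3 in T-47D cells (0.877). None of these principal chaperones moved by 1.5-fold at the deposited scaling.

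The calnexin cycle holds glycoproteins until they are folded. CALR, its soluble lectin chaperone calreticulin, had signals of 770.6 and 787.9 in MDA-MB-231 cells (1.02), against 1018.4 and 933.3 in T-47D cells (0.916), where a second probe set gave 0.611. CANX, the membrane-bound calnexin, gave 3919.9 and 4114 in MDA-MB-231 cells (1.05), against 2317.2 and 1695 in T-47D cells (0.731). UGGT1, the glucosyltransferase that returns unfolded glycoproteins to the cycle, had 393.6 and 397.9 in MDA-MB-231 cells (1.01), whereas in T-47D cells it fell from 221.2 to 107.7 (0.487), just above the minimum signal. Another UGGT1 probe set read 105.3 and 58.2 for T-47D, beside 150.7 and 132.3 for MDA-MB-231, so in T-47D cells it too was lower with JPH203.

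Of the J-domain cochaperones that stimulate BiP, DNAJB9 alone was above control in both lines. In MDA-MB-231 cells its control signal was 256.9 and its JPH203 signal 368.8 (1.44). In T-47D cells it rose by the 1.5-fold rule from 327.1 to 538.4 (1.65). A second DNAJB9 probe set gave 135.1 and 217.3 in MDA-MB-231 cells (1.61) but 189.4 and 205.6 in T-47D cells (1.09). A dimmer one, below the minimum, read 35.6 and 57.5 in T-47D cells. The DNAJB9 probe sets thus gave different ratios in that line.

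The other J-domain genes had smaller ratios. DNAJB11, whose product binds unfolded chains, gave 1409.8 and 1446.3 in MDA-MB-231 cells (1.03), against 2379.9 and 1982.4 in T-47D cells (0.833). DNAJC3, also known as an inhibitor of PERK, gave 278.1 and 332.2 (1.19), then 285.6 and 255.9 (0.896). DNAJC10, a reductase of disulfide bonds, gave 467.8 and 505.3 (1.08), then 274.7 and 211.8 (0.771), whereas a second probe set read 1.24 in T-47D cells.

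SDF2L1, a partner of DNAJB11, had signals of 475.8 and 416.1 in MDA-MB-231 cells (0.875), against 548.4 and 540.3 in T-47D cells (0.985). CRELD2, a secreted stress-inducible protein, gave 424.6 and 397.9 (0.937), then 592.6 and 511.3 (0.863). MANF, a secreted factor that binds BiP, gave 1748.7 and 1712.5 in MDA-MB-231 cells (0.979), against 811.9 and 1105.7 in T-47D cells (1.36). Of these 3 known stress-inducible genes MANF in T-47D cells was the only value above control.

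**Figure D2:**
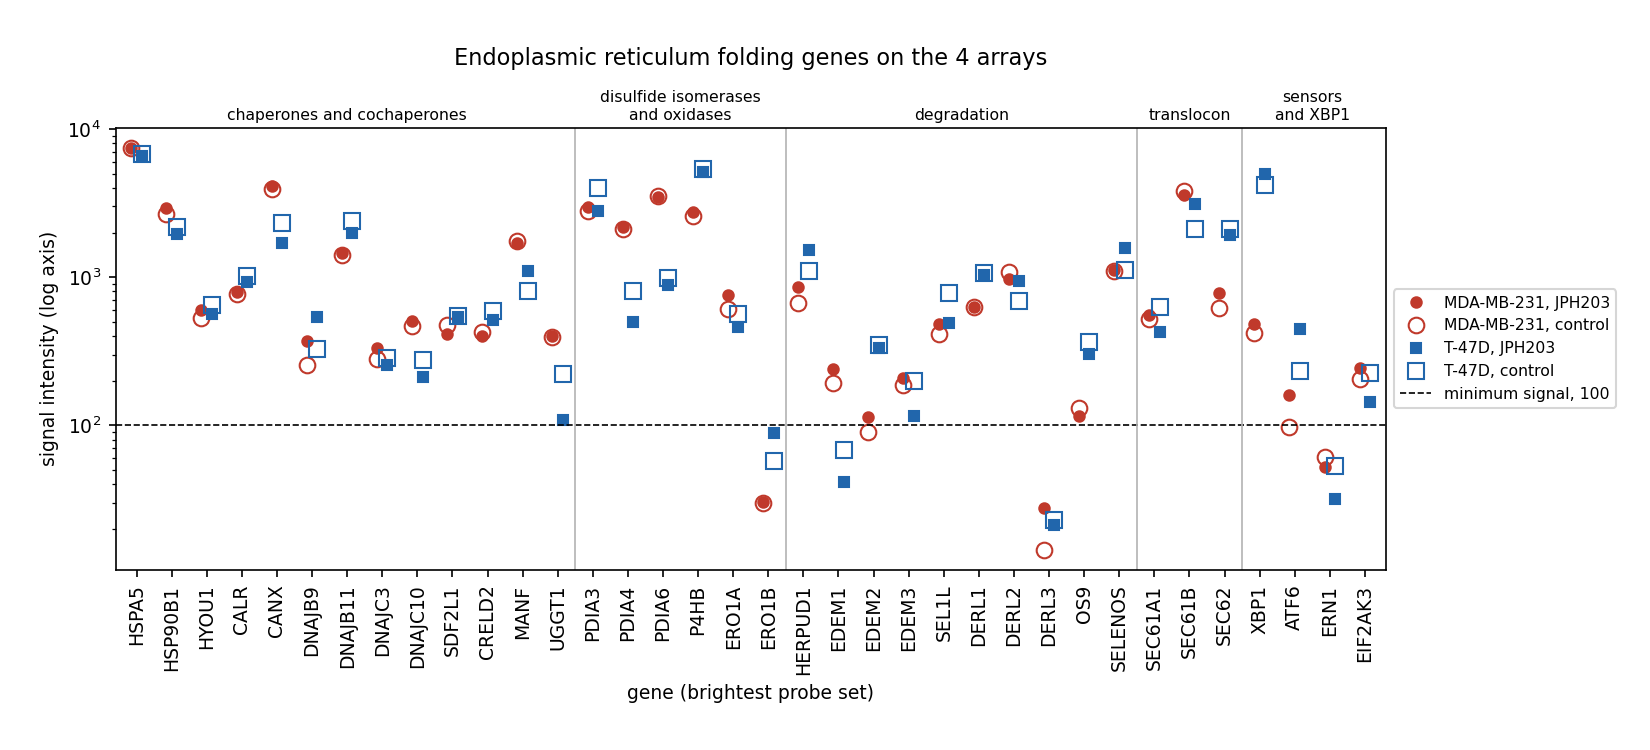
Signal intensity (log axis) of each member's brightest probe set on the 4 arrays, with open symbols for control, filled symbols for JPH203, circles for MDA-MB-231 and squares for T-47D cells. For most genes the filled symbol lies inside or next to the open one of the same line, and the dashed line marks the minimum signal of 100. Heights of different genes come from different probes and are not comparable.

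The 5 measured disulfide isomerases and oxidases were all below control in T-47D cells, with a median log2 ratio of -0.30, and 4 of 5 were above it in MDA-MB-231 cells, with a median of 0.08. PDIA4 had the lowest of these ratios: in T-47D cells it fell by the 1.5-fold rule from 808.7 to 498 (0.616), while MDA-MB-231 cells had 2113.5 and 2187.5 (1.04). A second PDIA4 probe set read 235.3 and 106.2 in T-47D cells (0.451), beside 527.5 and 519.8 in MDA-MB-231 cells (0.985). The lower T-47D signal was thus seen by both probe sets.

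PDIA3, the isomerase that works with calnexin and calreticulin, gave 2816.6 and 2980.4 in MDA-MB-231 cells (1.06), against 4003 and 2807.2 in T-47D cells (0.701). PDIA6 gave 3538.2 and 3452.3 (0.976), then 980.9 and 885.9 (0.903), and its log2 ratio in T-47D cells turned from -0.15 to 0.02 without the _x_at and _s_at probe sets. P4HB, the classical protein disulfide isomerase, gave 2594.4 and 2742.8 (1.06), then 5364.7 and 5100.2 (0.951). ERO1A is the oxidase that recharges these isomerases. Its signals were 607.2 and 756.7 in MDA-MB-231 cells (1.25), against 565.4 and 459.9 in T-47D cells (0.813). ERO1B, the second oxidase, was not read, with signals of 29.7 to 88.

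The ratios of the degradation genes ran from 0.581 to 1.42 in T-47D cells, a wider range than the 0.616 to 0.951 of the isomerases. HERPUD1, a scaffold of the retrotranslocation complex, was above control in both lines, with 672.5 and 856.9 in MDA-MB-231 cells (1.27), against 1104.9 and 1513.8 in T-47D cells (1.37). SELENOS, a selenoprotein that anchors the ATPase VCP at the membrane, gave 1102.8 and 1119.2 (1.01), then 1108.7 and 1577.8 (1.42). DERL2, a membrane protein of the exit route, gave 1089.6 and 965.6 (0.886), then 692.8 and 940.5 (1.36). These 3 genes were the only degradation members above control in T-47D cells, and none reached 1.5-fold.

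The other 5 of the 8 degradation members measured in T-47D cells were below control, EDEM2 with a log2 ratio of -0.06 that turned to 0.004 with quantile normalization and 0.03 with loess. SEL1L, the adaptor of the ubiquitin ligase HRD1, fell by the 1.5-fold rule from 787.3 to 493.8 (0.627), while MDA-MB-231 cells had 411.7 and 482.5 (1.17). Its 2 dimmer probe sets gave 0.938 and 0.750 in T-47D cells. EDEM3, a mannose-trimming enzyme, fell by the same rule from 199.3 to 115.7 (0.581), with 188.1 and 209.7 in MDA-MB-231 cells (1.11).

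EDEM1, of the same family, was read only in MDA-MB-231 cells, with 193.8 and 238.4 (1.23), and had 68.4 and 41.3 in T-47D cells. EDEM2 gave 90.7 and 114.5 in MDA-MB-231 cells, the first just under the minimum, and 349.6 and 334.5 in T-47D cells (0.957). OS9, a lectin that delivers clients to SEL1L, gave 130.4 and 116.3 (0.892), then 366.2 and 304 (0.830), and a second probe set gave 0.540 in T-47D cells. By its brightest probe set DERL1 was close to control, with 628.1 and 631.2 (1.00), then 1066.7 and 1031.7 (0.967). Its further probe sets above the minimum gave 0.980 and 0.963 in MDA-MB-231 cells, but 0.771 and 0.718 in T-47D cells. DERL3 had signals of 14.4 to 27.8 and was not read.

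The translocon admits new proteins to the compartment, and its 3 members did not move together. SEC61B, the small beta subunit of the channel, gave 3822.8 and 3590.5 in MDA-MB-231 cells (0.939), against 2118.8 and 3139.7 in T-47D cells (1.48). SEC61A1, the pore-forming subunit, gave 520.4 and 552.5 (1.06), then 632.7 and 427.8 (0.676). SEC62, which serves post-translational import, gave 620.5 and 779.9 (1.26), then 2103.2 and 1916.7 (0.911). None reached 1.5-fold.

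Set beside the members, the ATF4 target list of 30 genes had larger ratios in both lines. In MDA-MB-231 cells 20 of 21 measured genes were above control, with a median log2 ratio of 0.39, and 3 of 21 (ASNS, PSAT1 and CTH) rose 2-fold, against 0.0885% of all genes. The study had picked out these genes from the same arrays, so the count is not independent evidence. In T-47D cells 23 of 25 were above, with a median of 0.80, and 7 of the 23 measured on both arrays rose 2-fold, against 2.23% of all genes. Among these 7, ATF4, DDIT3 and ASNS had been named in the study from the same arrays, so this count is not independent evidence either. The 2 lists share the 4 arrays, so their values are given side by side and the difference was not tested.

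Single genes of that list varied between the lines. ATF4 itself had 1466 and 1356.6 in MDA-MB-231 cells (0.925), against 1675.7 and 5593.1 in T-47D cells (3.34). After a shorter treatment, the study reported higher ATF4 with JPH203 in both lines, as mRNA by quantitative PCR and as protein by western blot. The array value in MDA-MB-231 cells thus differs from those assays. DDIT3, the factor CHOP, gave 106 and 152.8 (1.44), then 238.1 and 2268.8 (9.53). TRIB3, a pseudokinase that binds ATF4, gave 140.6 and 189 (1.34), then 944.9 and 3454.4 (3.66).

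ASNS, asparagine synthetase, was raised in both lines, with 234.2 and 2090.8 in MDA-MB-231 cells (8.93), against 488 and 2105.1 in T-47D cells (4.31). ATF3 gave 223.5 and 310.8 in T-47D cells (1.39) and stayed below 100 in MDA-MB-231 cells. PPP1R15A, the phosphatase subunit that reverses eIF2α phosphorylation, gave 142.8 and 144.9 in MDA-MB-231 cells (1.01) and was below 100 in T-47D cells. SLC38A2, a neutral amino acid transporter, fell in T-47D cells by the 1.5-fold rule from 2511 to 1489.3 (0.593), and CTH, cystathionine gamma-lyase, had 136.6 and 95.5 there and 187.7 and 412.1 in MDA-MB-231 cells. CHAC1 was below 100 on all 4 arrays, at 2.9 and 16 for MDA-MB-231 and at 19.3 and 90 for T-47D. By quantitative PCR the study reported that CHAC1 rose with JPH203 in both lines.

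**Figure D3:**
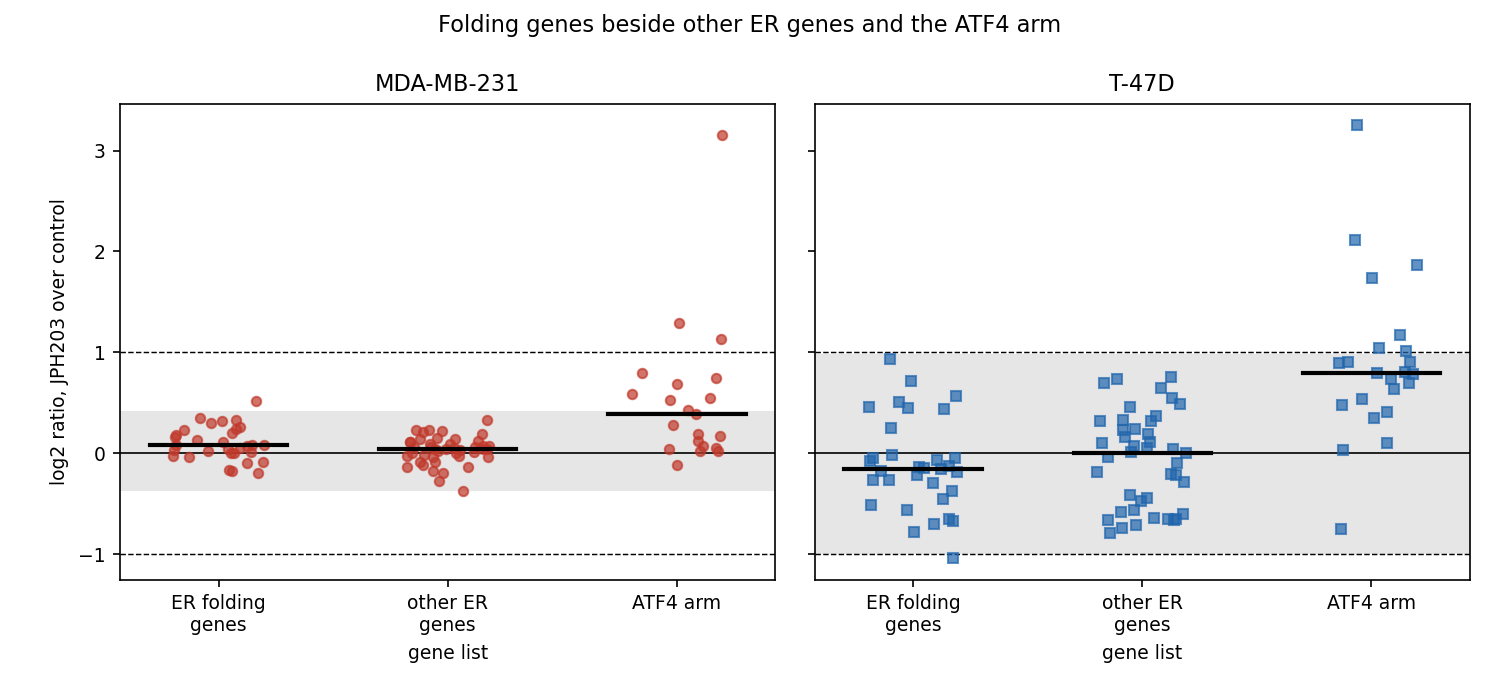
Log2 ratios of JPH203 to control for genes that reached 100 on both arrays of the line, for the folding genes, the ATF4 target list and the other endoplasmic reticulum genes in each line. Each point is a gene and each bar a list median. The median of the ATF4 target list (ATF4 arm) lies above those of both endoplasmic reticulum lists in each line, and the grey band holds the central 95% of all genes.

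By the brightest probe set at the deposited scaling, most members with a stress element had ratios close to 1 in both lines. Of the 9, 8 were measured on both arrays of each line. In T-47D cells their ratios ran from 0.863 to 1.37, with a median of 0.910, and HERPUD1, which also holds the amino acid response core, was the one above control. The other 7 lay between 0.863 and 0.985. The 22 measured members with a window but neither form ran from 0.487 to 1.91, with a median of 0.864. In MDA-MB-231 cells the 8 ran from 0.875 to 1.27 with a median of 1.01, and the 21 with neither form had a median of 1.06. Over all genes measured on both arrays the medians were 0.985 in T-47D and 0.995 in MDA-MB-231 cells. In T-47D cells a second CALR probe set gave 0.611, and quantile normalization took the log2 ratio of HSPA5 to -0.45. HERPUD1 was above control there as deposited but not with poly-A scaling. Without the _x_at and _s_at probe sets it was also below control, read from a probe set with signals of only 2.1 and 1.7.

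**Figure D4:**
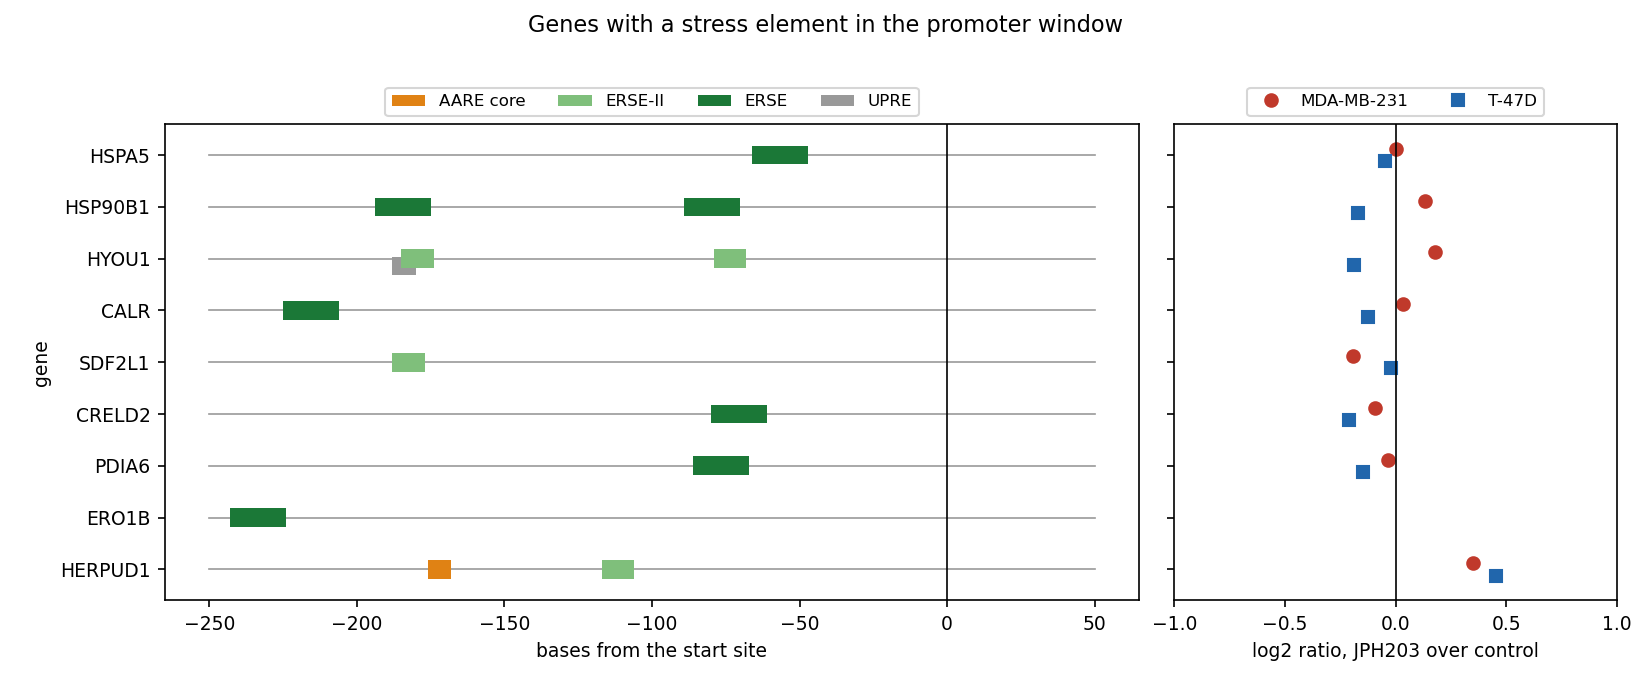
Left, position of each searched element in the promoter windows that hold a stress element, as distance from the start of the gene in bases (dark green ERSE, light green ERSE-II, grey TGACGTGG, orange the amino acid response core). Right, log2 ratio of JPH203 to control for the same genes in MDA-MB-231 (circles) and T-47D cells (squares), drawn where both signals were at least 100. HERPUD1 is the gene with both a stress element and the amino acid response core, and its ratios were 1.27 and 1.37.

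The members' ratios in T-47D cells were also set against the length of the gene in the RefSeq table, which the choice of members did not use. Across the 32 members Pearson's r of the log2 ratio with log10 length was -0.43 and Spearman's rho -0.55, and across 6413 genes they were -0.28 and -0.29. These are descriptions across genes of the same 2 arrays. The 8 members above control had a median length of 7.51 kb and the 24 below one of 28.3 kb, beside 27.0 kb over all genes. ATF6, at 198 kb the longest member measured, was the exception among the 8. In MDA-MB-231 cells r was 0.26 and rho 0.32 over 31 members, and 0.06 and 0.08 over 6774 genes. With the length trend removed, 23 of 32 members were below control in T-47D cells, ATF6 passed 2-fold and UGGT1 no longer did.

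**Figure D5:**
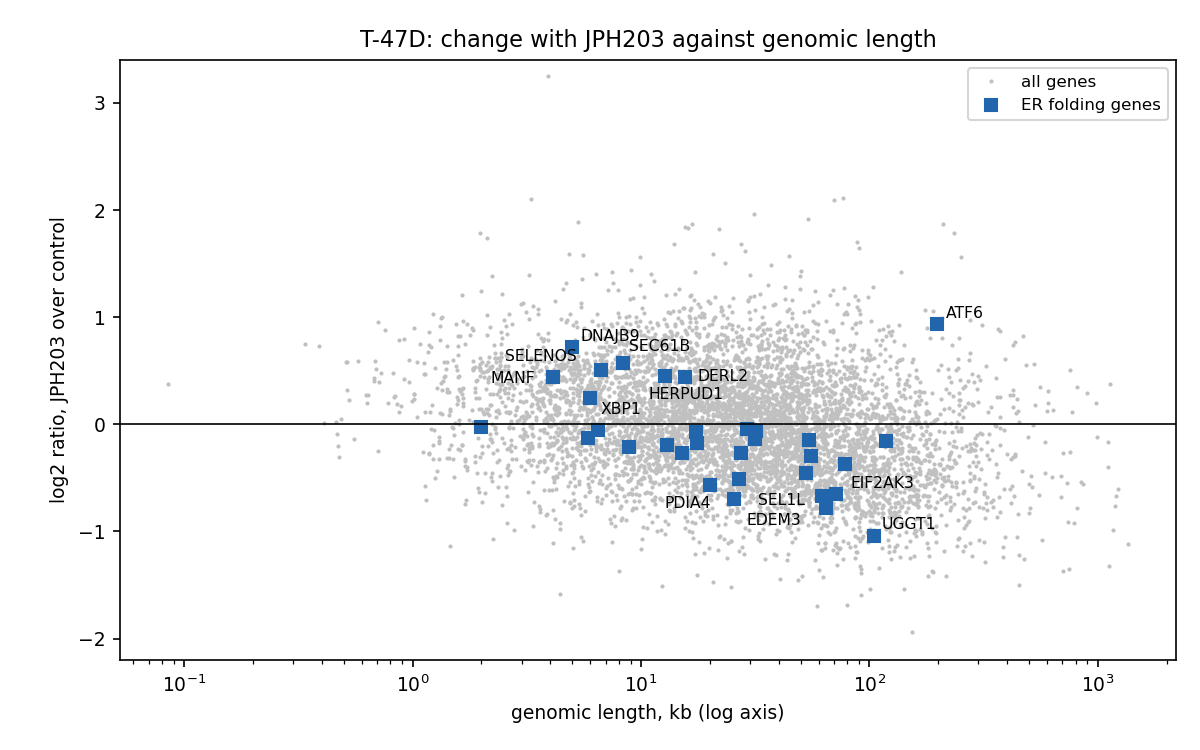
Log2 ratio of JPH203 to control in T-47D cells against genomic length in kb (log axis), with all genes measured on both arrays in grey and the folding genes as blue squares. The short members MANF, DNAJB9, XBP1, SELENOS and SEC61B lie above 0, whereas the short SDF2L1, CALR, HSPA5 and CRELD2 lie below it. The longer UGGT1, EDEM3, SEL1L and EIF2AK3 also lie below 0, and ATF6 is the long member above it.

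A second list of 52 genes of the same compartment, outside the members, was read in the same way. In MDA-MB-231 cells 0 of 43 genes reached 1.5-fold and the median log2 ratio was 0.04. The 4 largest log2 ratios in either direction included AUP1, a factor of degradation and lipid droplets (786.3 and 606, 0.771), and CREB3L1, a membrane-bound transcription factor (141.3 and 177.1, 1.25). The others were the ubiquitin-conjugating enzyme UBE2J1 (218 and 179.7, 0.824) and the signal peptidase subunit SPCS3 (508.4 and 597.9, 1.18). AUP1 alone lay outside the central 95%.

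In T-47D cells 0 of 42 genes of this list reached 2-fold, 4 rose and 9 fell 1.5-fold, and the median log2 ratio was 0.001. CLGN, MOGS and PRKCSH had a signal under 100 on 1 array and were left out of these fold counts but not of the medians. CLGN, a chaperone related to calnexin, had 23.3 in control and 207.6 with JPH203. The glucosidase genes were MOGS (139.8 and 70.3) and PRKCSH (190.8 and 95.3). CLGN thus lay below the minimum in control and above it with JPH203, whereas MDA-MB-231 cells had 422.2 and 438.9. SEC63, a translocon partner of SEC62, had 421.4 and 243 (0.577), and the ATPase VCP had 1425.3 and 855.5 (0.6002). TXNDC12, a thioredoxin-like protein, had 793 and 1341.5 (1.69), and HSPA13, an Hsp70 of microsomes, had 183.6 and 306.2 (1.67). By role, the median log2 ratios over genes with 100 on 1 array were 0.21 for folding, 0.32 for translocation and -0.42 for glycosylation. They were -0.47 for degradation and -0.34 for regulators, and each role had genes above and below control. Over genes with 100 on both arrays, folding had 0.19 and glycosylation -0.29.

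The control arrays gave the levels of the folding genes without JPH203. Of 33 members with a signal of at least 100 on 1 control array, MDA-MB-231 cells had 4 with 2-fold or more signal, beside 23.5% of all 8294 genes, and T-47D cells had 6, beside 24.3%. The median log2 ratio of MDA-MB-231 to T-47D control was -0.20, beside 0.001 over all genes. The poly-A transcripts had 3.25 times the signal on the T-47D control array, and scaling to them added 1.70 to the log2 ratio of every gene and turned this median to 1.497, so the direction between the lines depends on the scaling.

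XBP1 had control signals of 421.6 for MDA-MB-231 and 4216.7 for T-47D. Its log2 ratio of MDA-MB-231 to T-47D was -3.32 as deposited and -1.62 with poly-A scaling, so it was higher in T-47D cells on both scales. SEC62 was 3.39-fold higher in T-47D cells, OS9 2.81-fold and P4HB 2.07-fold as deposited. With poly-A scaling these did not hold, as their log2 ratios of MDA-MB-231 to T-47D became -0.06, 0.21 and 0.65. EDEM2 and ATF6 were also higher there as deposited, with MDA-MB-231 control signals below 100. The second ATF6 probe set was 2.15-fold higher in MDA-MB-231 cells, the opposite direction.

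Higher in MDA-MB-231 cells were PDIA6 (3.61-fold), PDIA4 (2.61-fold), MANF (2.15-fold) and EDEM1, whose T-47D control signal was below 100. Poly-A scaling widened the log2 ratios of PDIA6, PDIA4 and MANF from 1.85, 1.39 and 1.11 to 3.55, 3.09 and 2.81. The 3 other PDIA6 probe sets gave 3.22, 3.56 and 3.83. HSPA5 was close between the lines by its brightest probe set (1.10) and 2.23-fold higher in MDA-MB-231 cells by a dimmer one. Other probe sets differed from the brightest by over 0.5 in log2 ratio for 8 of 22 in this comparison, against 1 of 24 between the MDA-MB-231 arrays and 5 of 19 between the T-47D arrays. The other such cases were CANX (3.28), DNAJC10 (1.20), ERO1A (2.45), SEC62 (0.599) and both further probe sets of DERL1 (1.29 and 1.28, against 0.589 by the brightest).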

How the data were processed

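Total RNA of both lines was hybridised to Affymetrix U133 Plus 2.0 arrays, 1 per condition. The authors deposited linear signal intensity values for 54675 probe sets. The submitters' processing notes name GCOS, and its version and settings are not given in the sources used here. The mean signal without the lowest and highest 2% of values was 100.0 on each array. Precision is limited by the single array per condition, so the ratio within a line has no test. A fit of JPH203 with the line as a block would take the difference between the lines as its error and was not run.

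Of the probe sets, 41097 name 1 gene, 1801 several and 11777 were not listed in the platform annotation used. By gene identifier, 41043 matched RefSeq for GRCh38.p14, and 0 symbols changed. The brightest probe set has the highest mean signal over the 4 arrays among those naming the gene alone. Ratios are JPH203 over control of one line. A gene whose signal reached 100 on both arrays was called when its ratio was 2 or above, or 0.5 or below, whereas medians and control comparisons needed 100 on 1 array. Ratios that involve a signal under 100 were not read as a size. All members were named, with 7 ATF4 target genes. Of the other endoplasmic reticulum genes, the 4 largest log2 ratios in either direction were named per line. Probe sets that differ by over 0.5 in log2 ratio were also given. Others were chosen after their values were seen. Members and lists were chosen with earlier results of these data known. The promoters are the RefSeq windows of 300 bases. PDIA3, DERL1 and DERL3 had no window in the table used, and protein sequences are not analysed here.

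The alternatives were median centring, quantile normalization, loess (span 0.4), poly-A scaling (24 probe sets), removal of the length trend, a pseudocount of 16, minimum signals of 50 and 200, a 1.5-fold threshold and other choices of probe set. The brightest probe set of the 2 arrays compared was added after seeing the data. The counting was tested on simulated data. The work used matplotlib 3.10.9, statsmodels 0.14.6, pandas 2.3.3, numpy 2.4.6 and scipy 1.17.1 under Python 3.11.15.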

Additional observations from a re-analysis of the deposited data

How the results depend on the processing

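With 1 array per condition no alternative measures variation between cultures, and dim genes such as UGGT1 with JPH203 in T-47D cells lay close to the minimum signal. Of the values over all members, 85 under an alternative stayed within 1.5 times the count or 0.1 of the log2 median and 20 moved; of the ratios of single members, 406 stayed and 163 moved. In MDA-MB-231 cells the counts of 0 members at 2-fold held under every alternative run, the 1.5-fold threshold included.

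In T-47D cells the count of members 2-fold up, 0, became 1 with loess or with the length trend removed, and 2 at 1.5-fold. The count 2-fold down, 1, became 0 with quantile normalization, loess, the length trend removed, the pseudocount, a minimum signal of 200 or the mean of all probe sets, 2 without the _x_at and _s_at probe sets, 5 at 1.5-fold and 9 with poly-A scaling, under which 26.0% of all genes fell 2-fold. Poly-A scaling gave a median log2 ratio of 0.19 in MDA-MB-231 cells (0.11 over all genes) while that in T-47D cells was -0.80 (-0.70 over all genes).

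Between the control arrays, the 4 members higher in MDA-MB-231 cells became 23 with poly-A scaling and 9 at 1.5-fold, and the 6 higher in T-47D cells became 1 and 10. The median became 1.497 with poly-A scaling and 0.14 without the _x_at and _s_at probe sets, so it changed sign under both. The shifts under poly-A scaling follow from its construction, and the cause of the other changes was not tested.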
